A study of Rattus norvegicus with 35 samples.

Results

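The genes of glucose, glycogen and pentose phosphate metabolism were followed across 35 arrays of primary rat hepatocytes, liver cells taken from the animal and held in culture. The group was a list of 32 genes named by function in 6 branches, and no measured value was part of its rule, though it was drawn up with earlier results of these data known. A probe set, the group of short probes that reports a transcript on the array, named 1 of these genes alone for 29 of them, and 28 passed the filter on low values, among 10490 of 14217 genes tested in all. Hk2, a hexokinase of muscle and tumour cells, did not pass the filter, with values between -0.23 and -0.16 in the DMSO arrays, below the array's median, which lies near 0. Apart from the control probe sets of Gapdh, which stayed out of the tests, G6pc1, Pkm and Gapdh were covered by probe sets that name several genes, and are described apart from the counts.

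The cells received DMSO at 0.1% as vehicle, or myclobutanil, propiconazole or triadimefon at 10, 30 or 100 uM, phenobarbital at 200 uM or PCN at 30 uM, all for 72 h in the medium. The 3 fungicides are triazoles that differ in the rest of the molecule: propiconazole carries a dioxolane ring, triadimefon a ketone and myclobutanil a nitrile. Phenobarbital and PCN are inducers of liver drug metabolism and were the positive controls. Every group but PCN held 3 arrays, coded Rs256, Rs293 and Rs304 in their titles. PCN held 2, with no Rs256 array. The series calls them biological replicates, but nothing in its labels ties a code to an animal, a donor or a culture, so p-values measure the spread between these arrays. Strain, age and sex were not given in the sources used here.

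The liver takes up glucose and fructose, stores glucose as glycogen, breaks it down to pyruvate by glycolysis, and returns glucose to the blood by gluconeogenesis. Liver-type enzymes such as liver pyruvate kinase (Pklr) and liver glycogen synthase (Gys2) mark the differentiated hepatocyte, while isoenzymes of other tissues such as the muscle-type pyruvate kinase (Pkm) and the platelet-type phosphofructokinase (Pfkp) are scarce in normal liver and more common in dividing or cultured cells. The pentose phosphate pathway branches off glycolysis and gives NADPH and ribose. Pyruvate dehydrogenase links pyruvate to the citric acid cycle.

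Levels are given in normalized units of the deposited log-like scale, whose base was not given in the sources used here. The control transcripts bioC, bioD and cre rose by 0.487 units per doubling (SD 0.0241 over arrays) if they were added at the standard 5, 25 and 100 pM, so about that much corresponds to 1 doubling. Changes are differences of group means with the standard error (SE) of limma, fitted over all 35 arrays with no replicate block. Calls rest on an adjusted p below 0.05, with the Benjamini-Hochberg adjustment made over the 10490 genes of each comparison. A second fit added the Rs code as a replicate block, because arrays of the same code deviated together, and its calls are given where they differ. Where 3 values stand for a group, they are in the order Rs256, Rs293, Rs304.

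Propiconazole at 100 uM was the treatment with the most member calls. Fbp1 of glucose synthesis, Gys2 of glycogen storage, Pdk2 and 3 liver-type genes of sugar breakdown were lower, and 1 gene each of the glycolysis core, pyruvate dehydrogenase and the pentose phosphate pathway was higher. Of 28 members tested, 3 rose and 6 fell, which is 32.1% of them, where 12.0% of all genes tested were called (6.37% rose and 5.60% fell). The 6 that fell were Fbp1, Gys2, Khk, Pfkfb1, Pklr and Pdk2, and the 3 that rose were Tkt, Aldoa and Pdha1. With the replicate block 4 rose and 10 fell, where 29.3% of all genes were called. The median change of the 28 members was -0.02, against 0.01 for all genes, and the branch medians ran from -0.61 in gluconeogenesis to 0.14 in the pentose phosphate pathway. In a bulk culture fewer cells of a type and less RNA per cell cannot be told apart.

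These calls depended on the normalization. On the values as deposited, with no quantile normalization, 0 members were called for propiconazole at 100 uM, where limma called 428 genes in all. With those values and the replicate block, an alternative chosen after seeing the data, 5 of 28 members and 1401 of 10490 genes were called. Directions did not reverse for any called member under any alternative tried.

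**Figure D1:**
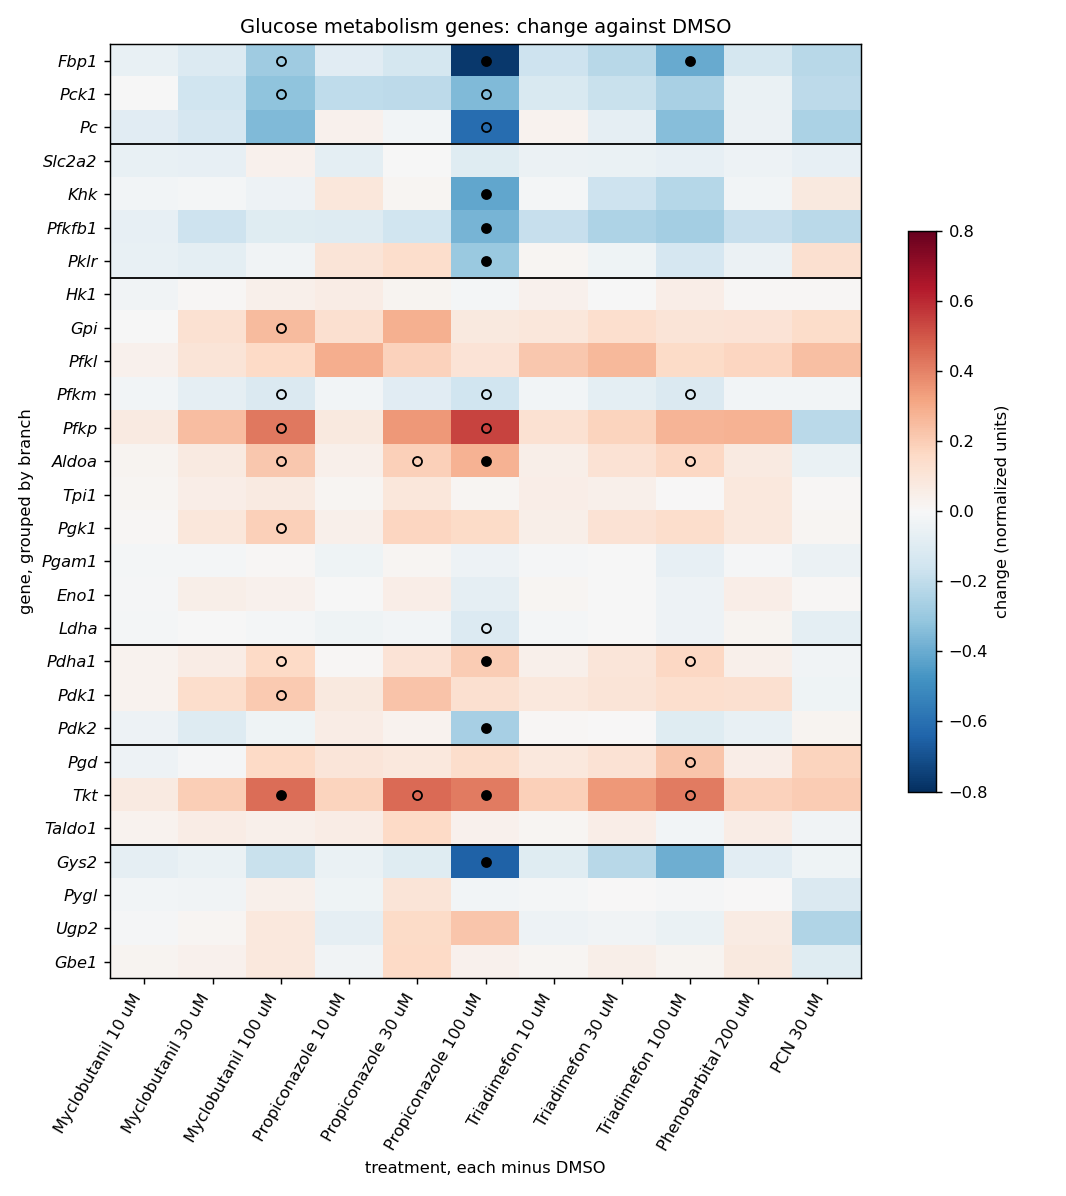
Change against DMSO in normalized units (colour, blue lower and red higher) of the 28 tested members (rows, grouped by branch) in the 11 treatments (columns). A filled circle marks a call in the fit without the replicate block and an open circle a call in the fit with the block alone. The propiconazole 100 uM column holds 9 filled circles, from -0.77 for Fbp1 to 0.42 for Tkt, and the phenobarbital and PCN columns hold 0.

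The sequences upstream of 6 of these genes are shown as examples from the branches described: genes of glucose synthesis (Fbp1, G6pc1), glycogen storage (Gys2), liver-type sugar breakdown (Khk, Pklr) and the pentose phosphate pathway (Tkt). RefSeq (build GRCr8) gave a start for 30 of the 32 members in 34 windows, and the 250 bases before the start were read 5′ to 3′ on the strand of the gene. They lie at chr17:2213457-2213706 (Fbp1, plus strand), chr10:86807409-86807658 (G6pc1, plus), chr4:177137237-177137486 (Gys2, minus), chr6:31175482-31175731 (Khk, minus), chr2:176841014-176841263 (Pklr, plus) and chr16:5729982-5730231 (Tkt, plus). Capitals mark exact matches, on either strand, to the spellings of 9 motifs.
Fbp1: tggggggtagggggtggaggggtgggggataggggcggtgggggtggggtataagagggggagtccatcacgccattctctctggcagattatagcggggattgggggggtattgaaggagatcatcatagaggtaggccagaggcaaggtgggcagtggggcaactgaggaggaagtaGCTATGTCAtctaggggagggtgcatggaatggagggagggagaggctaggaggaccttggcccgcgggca
G6pc1: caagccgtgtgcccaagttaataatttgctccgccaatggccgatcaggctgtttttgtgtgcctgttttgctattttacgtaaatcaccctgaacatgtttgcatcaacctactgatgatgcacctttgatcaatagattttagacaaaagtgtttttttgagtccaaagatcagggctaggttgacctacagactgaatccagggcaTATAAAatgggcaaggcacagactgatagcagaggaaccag
Gys2: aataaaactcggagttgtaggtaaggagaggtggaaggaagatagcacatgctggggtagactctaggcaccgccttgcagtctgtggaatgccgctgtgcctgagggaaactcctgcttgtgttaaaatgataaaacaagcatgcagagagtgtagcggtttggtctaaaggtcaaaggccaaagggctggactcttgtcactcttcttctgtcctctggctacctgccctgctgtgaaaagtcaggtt
Khk: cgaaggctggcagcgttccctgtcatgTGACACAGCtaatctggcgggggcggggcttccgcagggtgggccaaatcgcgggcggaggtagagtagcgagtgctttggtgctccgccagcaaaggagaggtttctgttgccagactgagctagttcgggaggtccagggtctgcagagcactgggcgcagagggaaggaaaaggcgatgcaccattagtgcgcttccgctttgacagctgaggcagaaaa
Pklr: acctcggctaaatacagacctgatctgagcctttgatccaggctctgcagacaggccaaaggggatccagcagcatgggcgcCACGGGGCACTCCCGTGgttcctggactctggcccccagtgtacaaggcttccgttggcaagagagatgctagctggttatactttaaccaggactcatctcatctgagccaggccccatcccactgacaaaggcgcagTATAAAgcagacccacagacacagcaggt
Tkt: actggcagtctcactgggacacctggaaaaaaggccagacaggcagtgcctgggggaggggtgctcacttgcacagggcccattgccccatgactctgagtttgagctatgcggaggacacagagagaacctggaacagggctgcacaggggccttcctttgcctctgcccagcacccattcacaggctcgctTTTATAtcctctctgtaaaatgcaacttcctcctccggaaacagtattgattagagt

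The Pklr window holds the carbohydrate response element, through which glucose is known to raise this gene, as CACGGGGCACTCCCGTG from base -168 to -152 before the start. Its spelling as searched, with free bases between its ends, occurs in 7 of 33469 windows of all genes (0.0209%), and its ends can overlap the E-box CACGTG, found in 5.59% of all windows. A TATA box, TATAAA, lies at -29 in Pklr, at -41 in G6pc1 and, on the other strand, at -57 in Tkt, and 12.9% of all windows hold one. The letters of the antioxidant response element, TGACNNNGC, occur in Khk at -223 and, on the other strand, in Fbp1 at -71, and in 10.1% of all windows. The cAMP response element TGACGTCA was found at -51 of Ldha (1.59% of all windows), beside an E-box at -87, and Pdk2 held an E-box at -143. The Gys2 window held no exact match to the 9 motifs. The remaining 4 were the HNF4 site CAAAGTNCA (1.06% of all windows), the direct repeat bound by nuclear receptors (0.0508%), the HNF1 site (0.00299%) and the forkhead site TGTTTAC (3.21%). None of these spellings was in a member's window. Each motif was searched as 1 exact spelling, so sites that differ from it would be missed. The HNF1 and direct repeat spellings occurred in 1 and 17 of 33469 windows of all genes. Absence of a spelling therefore cannot show that a member lacks such a site. These matches describe letters, not binding.

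Gluconeogenesis held the member with the smallest adjusted p of the list. Fbp1, fructose-1,6-bisphosphatase, which drives a one-way step of glucose synthesis, measured 2.65, 2.54 and 2.57 in the DMSO arrays. It measured 1.86, 1.90 and 1.69 with propiconazole at 100 uM, below every DMSO array, a change of -0.77 (SE 0.105, n = 3 and 3, limma adjusted p = 1.93e-05). Leaving out any single array of DMSO or propiconazole at 100 uM kept the call. On the values as deposited the change was -0.73 (limma adjusted p = 0.0931), and with the replicate block as well it was called.

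Fbp1 was also lower with the other triazoles at 100 uM. It measured 2.23, 2.18 and 2.12 with triadimefon, a change of -0.41 (SE 0.105, limma adjusted p = 0.0435), and 2.50, 2.26 and 2.14 with myclobutanil, a change of -0.29 (limma adjusted p = 0.251, and 0.0113 with the replicate block). Neither group overlapped the DMSO arrays. The triadimefon call was lost when any single array of DMSO or of that group was left out (limma adjusted p between 0.0912 and 0.16), on the values as deposited (limma adjusted p = 0.971), and under the settings without the filter (limma adjusted p = 0.055) or with only the 2 groups fitted (limma adjusted p = 0.0753). With the replicate block it held (limma adjusted p = 0.000515).

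Pck1, phosphoenolpyruvate carboxykinase, and Pc, pyruvate carboxylase, catalyse the first steps of glucose synthesis and were called only with the replicate block. Pck1 measured 0.05, 0.26 and 0.43 in DMSO, near the array's median, and -0.16, 0.03 and -0.21 with propiconazole at 100 uM. The change was -0.36 (SE 0.147, limma adjusted p = 0.123, and 0.00886 with the block). With myclobutanil at 100 uM Pck1 measured -0.15, 0.07 and -0.14, overlapping DMSO, a change of -0.32 (limma adjusted p = 0.436, and 0.0439 with the block). Pc measured 1.61, 1.35 and 0.89 in DMSO and 0.76, 0.74 and 0.53 with propiconazole at 100 uM, with no overlap although the DMSO arrays spread widely by code. Its change was -0.61 (SE 0.227, limma adjusted p = 0.0822, and 0.000498 with the block).

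G6pc1, the glucose-6-phosphatase that releases free glucose, was covered by 4 probe sets that the annotation gives jointly to Psme3, Aoc3 and G6pc1. The source sequence of 1 of them is a G6pc1 transcript in RefSeq, and its values are given under that description, since the annotation alone does not assign them. It measured 1.24, 1.16 and 1.44 in DMSO, 0.45, 0.47 and 0.65 with propiconazole, 0.52, 0.64 and 0.56 with triadimefon and 0.82, 0.61 and 0.74 with myclobutanil, each at 100 uM. All 9 triazole arrays lay below the DMSO arrays. Tested among 17971 probe sets, of which 11.3%, 1.55% and 0.785% were called in these comparisons, the changes were -0.76 (SE 0.110, limma adjusted p = 4.86e-05), -0.71 (limma adjusted p = 0.000942) and -0.56 (limma adjusted p = 0.0136).

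The level of this probe set was below DMSO at the lower doses as well. Its group means were 0.87, 0.65 and 0.57 with triadimefon at 10, 30 and 100 uM, 0.94, 0.81 and 0.52 with propiconazole, and 0.99, 0.93 and 0.72 with myclobutanil, against 1.28 in DMSO. At 30 uM triadimefon gave a call (-0.63, limma adjusted p = 0.0194, where 0.0278% of probe sets were called), which was lost on leaving out any single array of either group (limma adjusted p between 0.0686 and 0.275) and on the values as deposited (0.127). Propiconazole at 30 uM gave a call with the replicate block alone (-0.47, limma adjusted p = 0.155, and 0.011 with the block, where 0.0111% of probe sets were called without it and 1.81% with it). Phenobarbital and PCN gave 0.93 and 1.03, and neither was called (limma adjusted p = 1 for each, where 0.00556% of probe sets were called in each). Unlike Fbp1, this probe set kept its call for propiconazole at 100 uM under all 17 alternatives tried, the values as deposited included (limma adjusted p at most 0.0119). The myclobutanil call was lost under 6 of 17 alternatives (limma adjusted p at most 0.177). These included leaving out the Rs304 array of DMSO or the Rs293 array of myclobutanil (limma adjusted p = 0.099 and 0.0687). The others were median and MAD scaling, leaving out all Rs256 or all Rs304 arrays, and fitting only the 2 groups. The triadimefon call at 100 uM was lost without the Rs256 arrays (limma adjusted p = 0.061) and with only the 2 groups fitted (limma adjusted p = 0.0568).

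A second probe set of the same joint annotation fell in the same comparisons, by 0.65 with propiconazole, 0.64 with triadimefon and 0.52 with myclobutanil at 100 uM, all called. Its means were then -0.08, -0.07 and 0.05, near the array's median. Its propiconazole call was kept under all 17 alternatives, while the triadimefon call was lost under 2 and the myclobutanil call under 7. The other 2 probe sets of this annotation did not fall. One rose by 0.31 with propiconazole at 100 uM (limma adjusted p = 0.00536), and the other changed by 0.08 (limma adjusted p = 0.654). Which of the 3 genes these 3 probe sets report was not tested.

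**Figure D2:**
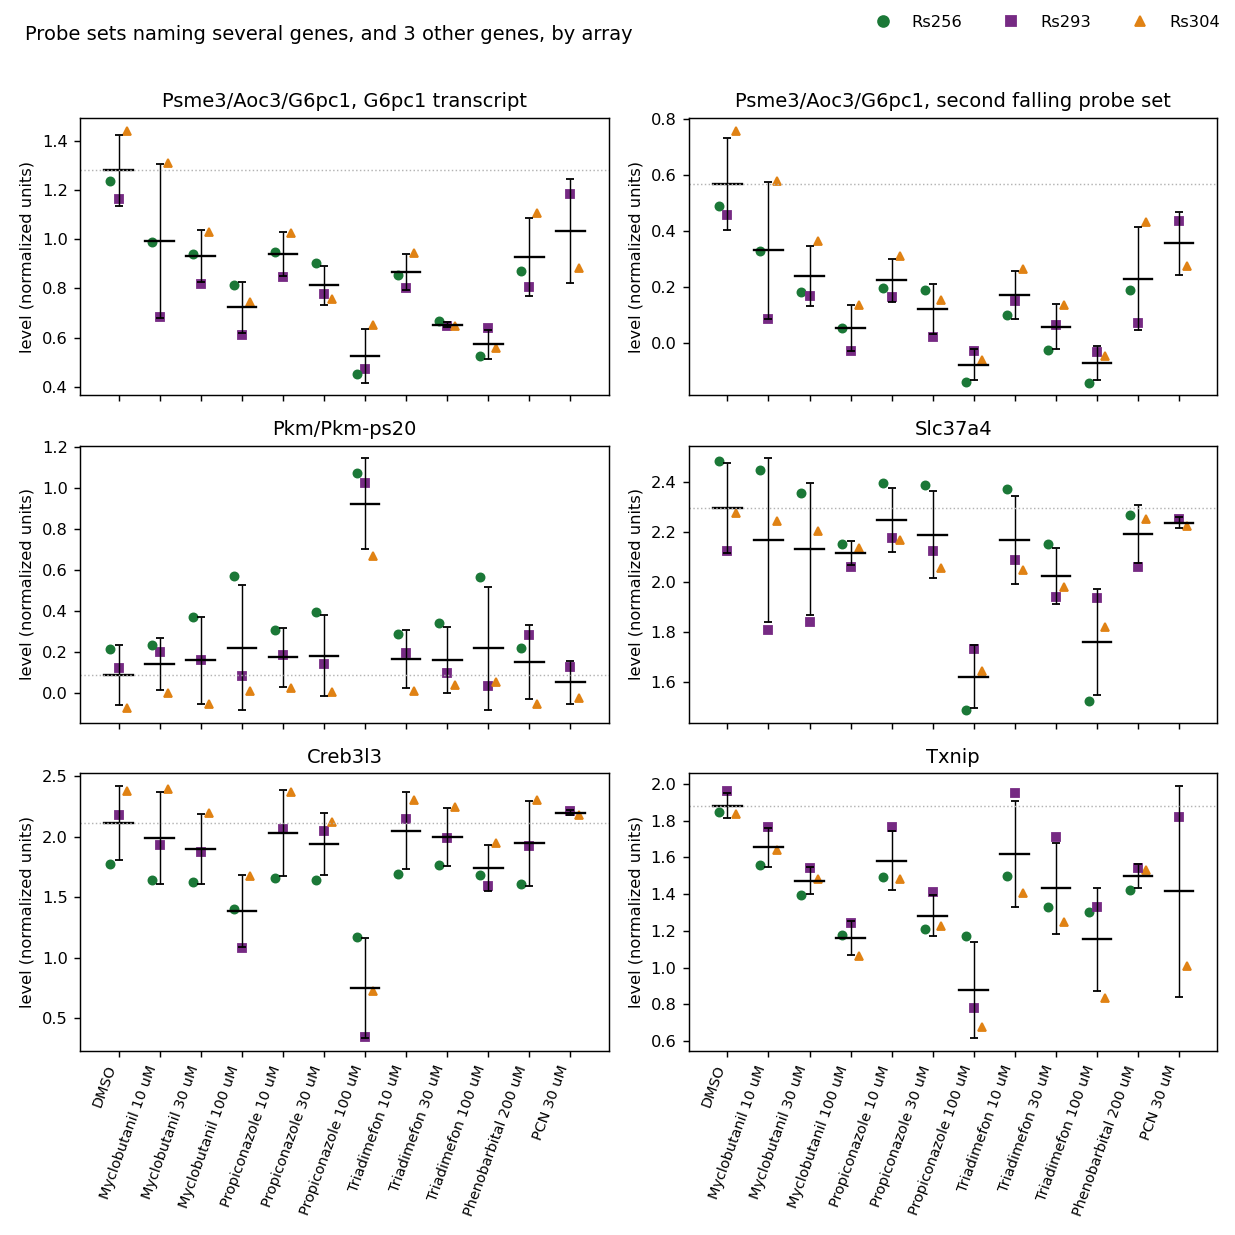
Levels in normalized units (vertical axis) of 2 probe sets annotated jointly to Psme3, Aoc3 and G6pc1, of the probe set of Pkm and Pkm-ps20, and of Slc37a4, Creb3l3 and Txnip, by treatment group (horizontal axis). Symbols are single arrays by Rs code, bars are the mean ± SD over 3 arrays (2 for PCN), and the dotted line is the DMSO mean. The 3 propiconazole 100 uM arrays of the Pkm panel, 0.67 to 1.08, lie above all others, and those of the G6pc1 panel, 0.45 to 0.65, lie below the 3 DMSO arrays, 1.16 to 1.44.

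Of the genes of sugar uptake and the liver-type control of glycolysis, 3 of 4 fell with propiconazole at 100 uM. Over all genes 5.60% fell. Khk, ketohexokinase, which traps fructose in the liver, measured 1.59, 1.57 and 1.57 in DMSO and 0.99, 1.21 and 1.27 with propiconazole. The DMSO arrays were nearly equal and the treated arrays lay clearly below, a change of -0.42 (SE 0.102, limma adjusted p = 0.00726). Without the Rs256 array of propiconazole at 100 uM the Khk change was -0.33 (limma adjusted p = 0.0587), and without all Rs304 arrays it was not called (0.113).

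Pklr, liver pyruvate kinase, the last step of glycolysis and the gene with the carbohydrate response element shown above, measured 1.35, 1.34 and 1.19 in DMSO. It measured 0.97, 1.23 and 0.78 with propiconazole at 100 uM, lower within each code but overlapping across codes, a change of -0.30 (SE 0.0917, limma adjusted p = 0.0319). A second Pklr probe set fell by 0.38 (limma adjusted p = 0.00421 over all probe sets) with no overlap. The first probe set's call was lost without the Rs256 or the Rs304 array of propiconazole (limma adjusted p = 0.0894 and 0.224), and without the Rs256 or the Rs293 array of DMSO (limma adjusted p = 0.11 and 0.116).

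Pfkfb1, the liver enzyme that makes and removes fructose-2,6-bisphosphate and so sets the balance of glycolysis and gluconeogenesis, measured 2.21, 1.96 and 2.15 in DMSO and 1.47, 1.94 and 1.78 with propiconazole at 100 uM. The groups were parted by a narrow gap, and the change was -0.37 (SE 0.123, limma adjusted p = 0.0464). Its call was lost without the Rs256 or Rs304 array of DMSO (limma adjusted p = 0.159 and 0.123) or of propiconazole (0.275 and 0.0763). Slc2a2, the liver glucose transporter, changed by -0.10 (SE 0.0690, limma adjusted p = 0.427). At 100 uM triadimefon the changes of Khk, Pfkfb1 and Pklr were -0.23, -0.27 and -0.13, and with myclobutanil -0.04, -0.09 and -0.03, and none of these 6 was called in either fit.

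**Figure D3:**
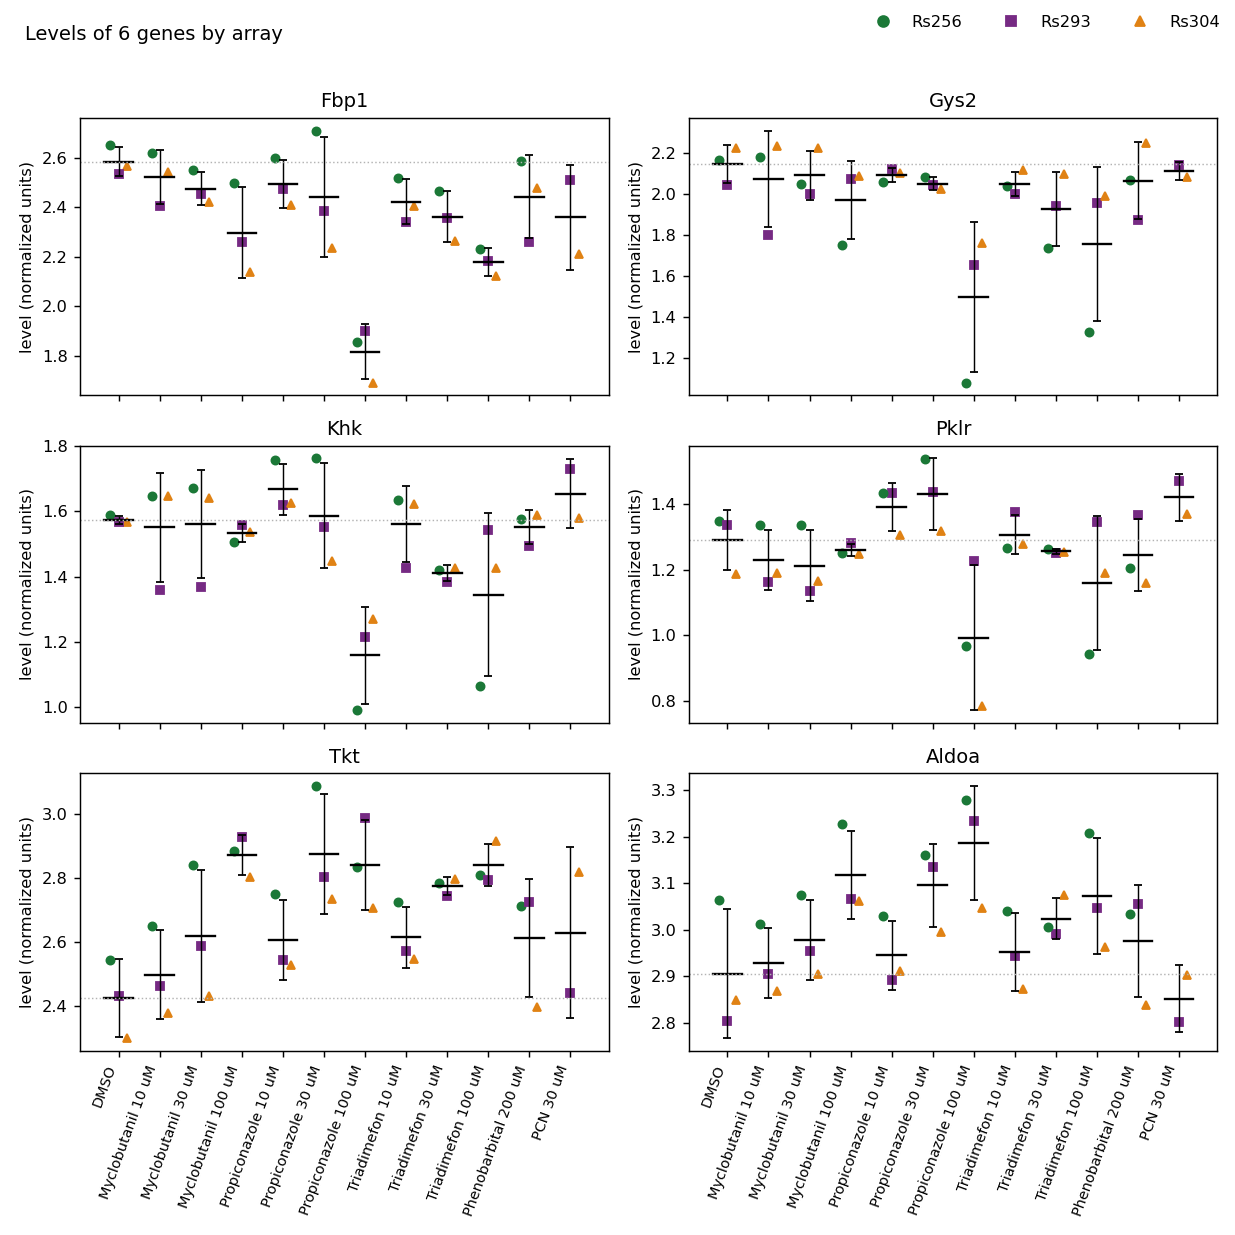
Levels in normalized units (vertical axis) of Fbp1, Gys2, Khk, Pklr, Tkt and Aldoa by treatment group (horizontal axis). Symbols are single arrays by Rs code, bars are the mean ± SD over 3 arrays (2 for PCN), and the dotted line is the DMSO mean. Fbp1 at 100 uM propiconazole (1.69 to 1.90) lies below every other array, and the Tkt arrays at 100 uM of each triazole lie above the DMSO arrays.

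Most enzymes of the glycolysis core did not pass the test. Of 11 members tested in this branch, 1 rose and 0 fell with propiconazole at 100 uM, and 2 rose and 2 fell with the replicate block. Over all genes 6.37% rose and 5.60% fell without the block, and 29.3% were called with it. Aldoa, aldolase A, the form of muscle and many dividing cells, measured 3.06, 2.80 and 2.85 in DMSO and 3.28, 3.23 and 3.05 with propiconazole. It was higher in each code with overlap across codes, by 0.28 (SE 0.0784, limma adjusted p = 0.0175). That call was lost without the Rs293 or Rs304 array of DMSO (limma adjusted p = 0.113 and 0.0758) or the Rs256 or Rs293 array of propiconazole (0.0933 and 0.0658).

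Aldoa was called with the block also for myclobutanil and triadimefon at 100 uM and for propiconazole at 30 uM. The arrays measured 3.23, 3.07 and 3.06 with myclobutanil, 3.21, 3.05 and 2.96 with triadimefon and 3.16, 3.13 and 2.99 with 30 uM propiconazole. Each group overlapped DMSO and was higher within every code. The changes were 0.21, 0.17 and 0.19 (limma adjusted p = 0.00859, 0.0321 and 0.043 with the block, and 0.254, 0.369 and 0.698 without it).

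Phosphofructokinase commits sugar to glycolysis, and its 3 subunit genes differed in their values. Pfkp, the platelet-type subunit, measured 1.76, 0.77 and 0.92 in DMSO, where the Rs256 array stood about 1 unit above the others, and 1.85, 1.61 and 1.61 with propiconazole at 100 uM. The change was 0.54 (SE 0.288, limma adjusted p = 0.257, and 0.000255 with the block). With myclobutanil at 100 uM Pfkp measured 1.84, 1.45 and 1.42, a change of 0.42 (limma adjusted p = 0.00956 with the block, 0.698 without). Both treated groups overlapped DMSO through that array.

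Pfkm, the muscle-type subunit, measured 0.25, 0.36 and 0.39 in DMSO, near the array's median. It measured 0.07, 0.27 and 0.19 with propiconazole, 0.14, 0.26 and 0.26 with myclobutanil and 0.13, 0.30 and 0.23 with triadimefon at 100 uM, lower within every code and overlapping across codes. The changes were -0.16, -0.11 and -0.12, called with the block alone (limma adjusted p = 0.000432, 0.0195 and 0.0152). Pfkl, the liver-type subunit, changed by 0.11, 0.16 and 0.15 in the same order and was not called in either fit.

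Ldha, lactate dehydrogenase A, measured 3.69, 3.57 and 3.51 in DMSO and 3.52, 3.48 and 3.46 with propiconazole at 100 uM, overlapping but lower in each code. Its change was -0.11 (limma adjusted p = 0.00316 with the block, 0.335 without). Gpi, glucose-6-phosphate isomerase, and Pgk1, phosphoglycerate kinase, were called with the block for myclobutanil at 100 uM. Gpi measured 2.42, 2.29 and 2.26 in DMSO and 2.55, 2.60 and 2.58 with myclobutanil, with no overlap, a change of 0.25 (limma adjusted p = 0.0452 with the block, 0.169 without). Pgk1 measured 3.15, 2.93 and 2.91 in DMSO and 3.18, 3.27 and 3.10 with myclobutanil, with overlap, a change of 0.19 (limma adjusted p = 0.0499 with the block, 0.566 without). Hk1, Tpi1, Pgam1 and Eno1 changed by -0.07 to 0.02 with propiconazole at 100 uM and were not called in either fit in any treatment.

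The probe set of the muscle-type pyruvate kinase was higher with propiconazole at 100 uM than with DMSO or either other triazole. It is annotated jointly to Pkm and the pseudogene Pkm-ps20, and its source sequence is a Pkm transcript in RefSeq. The arrays measured 0.21, 0.12 and -0.08 in DMSO, near the array's median, and 1.08, 1.03 and 0.67 with propiconazole at 100 uM, with no overlap, a change of 0.84 (SE 0.156, limma adjusted p = 0.000692). At 10 and 30 uM propiconazole the means were 0.17 and 0.18, so the rise was seen at the highest dose. Myclobutanil and triadimefon at 100 uM gave 0.22 each, and the direct differences of propiconazole from them were 0.70 (SE 0.156, limma adjusted p = 0.0315) and 0.71 (limma adjusted p = 0.0381), where 0.562% and 0.501% of probe sets were called. Without all Rs293 arrays the rise against DMSO was not called (limma adjusted p = 0.0671), and on the values as deposited it was. The 2 direct differences were not called on the values as deposited, with 7 and 6 of 17 alternatives keeping the call.

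Gapdh, the glycolytic enzyme often used as a reference, was covered by a probe set named jointly for Gapdh and Gapdhl10. It measured 3.68, 3.75 and 3.75 in DMSO and 3.72, 3.74 and 3.75 with propiconazole at 100 uM. The control probe sets of its 3′ and 5′ ends, whose signals draw apart when RNA is degraded, differed by 0.15 to 0.25 in the DMSO arrays and 0.08 to 0.26 in the propiconazole 100 uM arrays. The gap was 0.14 to 0.24 with myclobutanil and 0.22 to 0.29 with triadimefon at 100 uM, and 0.19 to 0.34 with propiconazole at 30 uM. Its part in the member changes was not tested.

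In the pyruvate dehydrogenase branch Pdha1, 1 subunit gene of the enzyme, and Pdk2, whose kinase inhibits the enzyme, went opposite ways with propiconazole at 100 uM. Of 9 other genes of pyruvate entry tested, from a list that holds other subunits, 1 rose (Pdp2) and 0 fell. Their median change was -0.07. Over all genes 6.37% rose and 5.60% fell. Pdk1, another such kinase, did not go the way of Pdk2. Pdha1, the catalytic subunit, measured 1.82, 1.88 and 1.93 in DMSO and 2.08, 2.15 and 2.01 with propiconazole, with no overlap, a change of 0.20 (SE 0.0569, limma adjusted p = 0.0196). A second Pdha1 probe set rose by 0.29 (limma adjusted p = 0.0243 over all probe sets). Pdk2, a pyruvate dehydrogenase kinase, measured 2.02, 1.85 and 1.92 in DMSO and 1.75, 1.76 and 1.50 with propiconazole, with no overlap, a change of -0.26 (SE 0.0832, limma adjusted p = 0.0376). Pdk1 changed by 0.13 with propiconazole at 100 uM, upward like Pdha1, and was not called in either fit. It measured 2.01, 1.58 and 1.53 in DMSO and 2.04, 1.85 and 1.86 with myclobutanil at 100 uM, overlapping, a change of 0.21 that was called with the block alone (limma adjusted p = 0.0406, and 0.745 without).

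Pdha1 measured 1.99, 2.18 and 1.94 with myclobutanil and 2.13, 2.07 and 1.92 with triadimefon at 100 uM, the first clear of DMSO and the second overlapping it. Both changes were 0.16, called with the block (limma adjusted p = 0.0418 and 0.0345) and not without it (0.222 and 0.165). For propiconazole the Pdha1 call was lost without the Rs256 or Rs293 array of DMSO or of the treated group (limma adjusted p between 0.0517 and 0.0969). The Pdk2 call was lost without the Rs256 or Rs304 array of DMSO (0.158 and 0.0795), without the Rs304 array of propiconazole (0.234), and when probe sets of a gene were averaged (0.0796).

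Tkt, transketolase of the pentose phosphate pathway, rose at 100 uM with myclobutanil and propiconazole, and with triadimefon in the fit with the block. It measured 2.54, 2.43 and 2.30 in DMSO, and 2.88, 2.93 and 2.80 with myclobutanil, 2.83, 2.99 and 2.70 with propiconazole and 2.81, 2.79 and 2.91 with triadimefon at 100 uM. Every one of these 9 arrays lay above the 3 of DMSO. The changes were 0.45 (SE 0.112, limma adjusted p = 0.0476), 0.42 (limma adjusted p = 0.0138) and 0.42 (limma adjusted p = 0.0556, and 0.00364 with the block).

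Tkt was about as high at 30 uM propiconazole, with 3.09, 2.80 and 2.73, clear of DMSO. That change was 0.45 (limma adjusted p = 0.179, and 0.00842 with the block). The direct differences in Tkt between the triazoles at 100 uM lay within their error: propiconazole minus myclobutanil was -0.03 (95% confidence interval -0.26 to 0.20) and propiconazole minus triadimefon was 0.00 (-0.23 to 0.23). The myclobutanil call was lost without any single array of DMSO or of that group (limma adjusted p between 0.0698 and 0.229). The propiconazole call was lost without the Rs304 array of DMSO (0.0787) or the Rs293 array of propiconazole (0.0795).

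The other 2 tested genes of the pathway moved less. Pgd, 6-phosphogluconate dehydrogenase, measured 1.47, 1.95 and 2.00 in DMSO and 1.78, 2.21 and 2.10 with triadimefon at 100 uM, higher within each code and overlapping. Its change was 0.22, called with the block alone (limma adjusted p = 0.0203, and 0.706 without). Taldo1, transaldolase, changed by -0.02 to 0.04 at 100 uM of the 3 triazoles and was not called.

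In the glycogen branch 1 of 4 members fell with propiconazole at 100 uM, where 5.60% of all genes fell. Gys2, liver glycogen synthase, measured 2.17, 2.05 and 2.23 in DMSO and 1.08, 1.65 and 1.76 with propiconazole at 100 uM, the Rs256 array lowest and no overlap. The change was -0.65 (SE 0.157, limma adjusted p = 0.00633). Without that Rs256 array it was -0.44 (limma adjusted p = 0.0694), and with only the 2 groups fitted the call was lost (0.0802), as it was without all Rs304 arrays (0.0647). Triadimefon at 100 uM gave 1.33, 1.96 and 1.99, again lowest in Rs256 and below all DMSO arrays, a change of -0.39 that was not called (limma adjusted p = 0.262, and 0.0548 with the block). Pygl, liver glycogen phosphorylase, which breaks glycogen down, changed by -0.02 with propiconazole at 100 uM (SE 0.0914), Gbe1, the branching enzyme, by 0.04, and Ugp2, which makes UDP-glucose, by 0.22 (SE 0.207), and none was called.

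**Figure D4:**
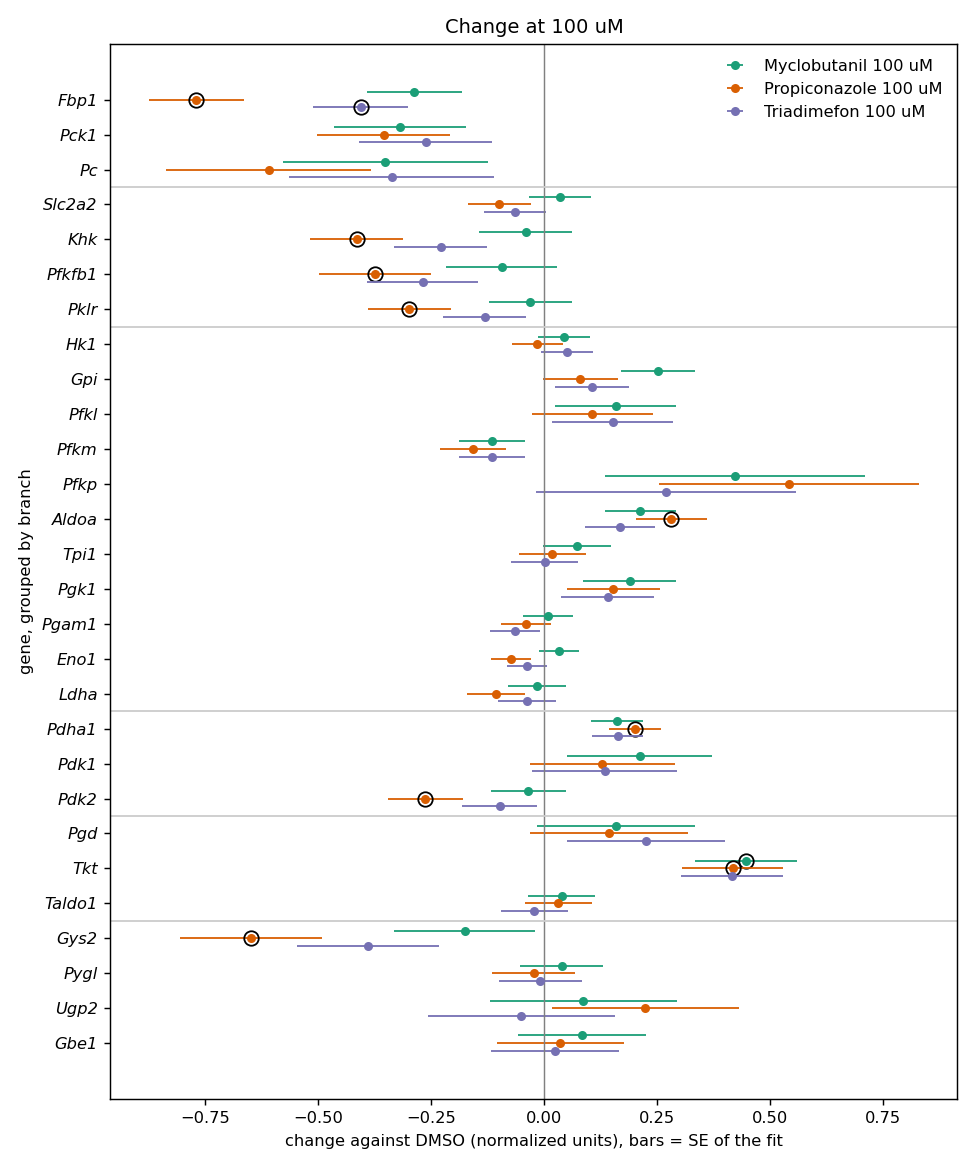
Change against DMSO in normalized units (horizontal axis) of the 28 tested members (rows, grouped by branch) for the 3 triazoles at 100 uM. Points are fitted changes, bars are the SE of the fit, and a black ring marks a call without the replicate block. Propiconazole has 9 rings, myclobutanil 1 (Tkt) and triadimefon 1 (Fbp1).

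Myclobutanil and triadimefon at 100 uM each had 1 of 28 members called, 3.57%, where 1.21% and 1.83% of all genes were called. These were Tkt, which rose as did 0.639% of genes with myclobutanil (0.572% fell), and Fbp1, which fell as did 0.963% of genes with triadimefon (0.867% rose). With the replicate block 10 members were called for myclobutanil (7 rose and 3 fell, where 9.92% of genes were called) and 6 for triadimefon (4 rose and 2 fell, where 11.8% were called). The 3 treatments share their DMSO arrays, so their values are set side by side and not correlated. Leaving out arrays moved the propiconazole 100 uM count of 9 members to 5 without the Rs256 array of DMSO and 3 without the Rs256 array of propiconazole. It was 2 without all Rs304 arrays and 11 without all Rs256 arrays. The shares of all genes called under these settings are not given here, so the counts describe the members alone.

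The lower doses and the positive controls gave 0 calls among the 28 members with limma. Over all genes the share called was 0.0381% with propiconazole and 0.0286% with triadimefon at 30 uM, 0% with myclobutanil and with triadimefon at 10 uM, and 0.00953% in each of the other 4. At an unadjusted p below 0.05 there were 4 of 28 members with propiconazole at 30 uM, where 6.0% of all genes passed that limit, 2 with triadimefon at 30 uM (4.84% of genes) and 1 with propiconazole at 10 uM (0.944%). There were 0 members in the other 5, where between 0.20% and 1.78% of genes passed. With the replicate block 2 members, Aldoa and Tkt, were called for propiconazole at 30 uM (2.62% of genes), and 0 in the other 7, where the block called 0.00953% of genes for myclobutanil and for triadimefon at 10 uM, 0.0191% for myclobutanil at 30 uM, propiconazole at 10 uM and phenobarbital, 0.0286% for PCN and 1.05% for triadimefon at 30 uM. The Fbp1 changes with phenobarbital and PCN were -0.14 and -0.22, each with a 95% confidence interval that reached 0 or above (upper bounds 0.07 and 0.02).

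The triazoles were compared directly at each dose, 9 comparisons in all. Fbp1 was lower with propiconazole than with myclobutanil at 100 uM by 0.48 (-0.48, SE 0.105, limma adjusted p = 0.0256), the only 1 of 28 members called there (0.744% of all genes). That call was lost without the Rs256 or Rs293 array of myclobutanil (limma adjusted p = 0.157 and 0.066) or the Rs304 array of propiconazole (0.127), and on the values as deposited (0.956). Against triadimefon at 100 uM 0 members were called (0.505% of genes), and 1 member passed an unadjusted p below 0.05, as 7.27% of all genes did. The Fbp1 difference was -0.36 (limma adjusted p = 0.163, and 0.00334 with the block).

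With the replicate block 5 members were lower with propiconazole than with myclobutanil at 100 uM (7.09% of genes were called). Besides Fbp1 they were Khk, Gys2, Pklr and Ldha, with differences of -0.37, -0.47, -0.27 and -0.09 (limma adjusted p = 0.0259, 0.0293, 0.0417 and 0.0366). Against triadimefon the block gave 1 member, Fbp1 (4.59% of genes). Myclobutanil against triadimefon at 100 uM gave 0 members in either fit (0% of genes without the block and 0.00953% with it, and 0 members at an unadjusted p below 0.05, which 1.91% of genes passed). The 6 comparisons at 10 and 30 uM gave 0 members and 0% of genes in the fit without the block, with 2 members at an unadjusted p below 0.05 for propiconazole against myclobutanil at 30 uM (2.10% of genes) and 0 in the other 5 (0.0477% to 0.944% of genes).

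Over the 3 propiconazole doses the slope per unit of log10 dose was called for 6 of 28 members, 21.4%, where 8.73% of all genes were called. Fbp1, Gys2, Khk, Pklr and Pdk2 had slopes of -0.69, -0.60, -0.51, -0.41 and -0.33, and Pdha1 had 0.19. These slopes share the 100 uM arrays with the comparison against DMSO. They were not even steps: Gys2 measured 2.10 and 2.05 on average at 10 and 30 uM and 1.50 at 100 uM, and Pklr 1.39, 1.43 and 0.99. The Pklr means at 10 and 30 uM were above the DMSO mean of 1.29, and neither was called. With the block 11 members were called (24.8% of genes). Without all Rs304 arrays 1 was, and without all Rs256 arrays 8, settings whose shares of all genes are not given here.

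For myclobutanil and triadimefon 0 members had a called slope (0.248% and 0.0763% of genes), with 6 and 3 members at an unadjusted p below 0.05, which 9.34% and 6.93% of all genes passed. With the block 3 slopes were called for myclobutanil, all upward: Tkt 0.38, Pfkp 0.35 and Aldoa 0.19 (6.63% of genes). For triadimefon 0 were (2.93%).

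Other genes of the same pathways were counted from a list of 83, of which 66 were tested. Apart from the block, the alternatives in normalization and left-out arrays were not read for these genes. How far their calls depend on such choices was not tested. With propiconazole at 100 uM 9 rose and 6 fell, with myclobutanil 3 rose and 1 fell, and with triadimefon 1 rose and 2 fell, where 12.0%, 1.21% and 1.83% of all genes were called. Blocking by replicate gave 15 up and 13 down, 9 up and 3 down, and 7 up and 4 down, in the same order, where 29.3%, 9.92% and 11.8% of genes were called. Slc37a4, the transporter that brings glucose-6-phosphate to glucose-6-phosphatase, measured 2.48, 2.12 and 2.28 in DMSO, 1.49, 1.73 and 1.64 with propiconazole and 1.52, 1.94 and 1.82 with triadimefon. Both groups lay below all DMSO arrays, with changes of -0.67 (limma adjusted p = 0.00193) and -0.53 (limma adjusted p = 0.0472).

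Creb3l3, a liver transcription factor of fasting, fell with propiconazole at 100 uM by 1.36 (SE 0.240, limma adjusted p = 0.000347). Foxo1, which drives gluconeogenic genes, fell by 0.44, Gpd1, glycerol-3-phosphate dehydrogenase, by 0.46 and Gcgr, the glucagon receptor, by 0.19. The Gcgr mean was 0.48 with propiconazole, 0.45 with triadimefon, where it was not called, and 0.61 with myclobutanil, against 0.66 in DMSO. Pck2, the mitochondrial form of Pck1, rose by 0.26. Txnip, a glucose-responsive inhibitor of glucose uptake, measured 1.85, 1.96 and 1.84 in DMSO and fell with all 3 triazoles at 100 uM, by 1.0 with propiconazole, 0.73 with triadimefon and 0.72 with myclobutanil (limma adjusted p = 0.000197, 0.0211 and 0.0312). Its means in the other groups were also below the DMSO mean of 1.88, though not called without the block. They were 1.50 with phenobarbital and 1.42 with PCN. At 10 and 30 uM they were 1.58 and 1.28 with propiconazole, 1.62 and 1.43 with triadimefon and 1.66 and 1.47 with myclobutanil.

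In glycolysis Aldoc and Eno2, the aldolase and enolase of nervous tissue, rose with propiconazole at 100 uM by 0.46 and 0.49, and Pfkfb3, the inducible counterpart of Pfkfb1, by 0.44 (limma adjusted p = 0.00189). The Aldoc means with propiconazole, myclobutanil and triadimefon at 100 uM were 1.05, 1.01 and 0.99, against 0.60 in DMSO. In the same order Eno2 gave 0.49, 0.32 and 0.33, and Pfkfb3 0.64, 0.42 and 0.40, against 0.20 for Pfkfb3 in DMSO. Direct differences between the triazoles are not given for these other genes. Eno2 had a DMSO mean of -0.01, near the array's median. Of the glycogen genes Gyg1, glycogenin, rose by 0.32, Pgm2, a phosphoglucomutase, by 0.36, Gsk3b, a kinase that inhibits glycogen synthase, by 0.15 and Gaa, the lysosomal glucosidase, by 0.47. Gyg1 and Pgm2 also rose with myclobutanil, by 0.24 and 0.20. Gaa was called with propiconazole alone, where its mean was 2.04. With myclobutanil and triadimefon at 100 uM it was 1.92 and 1.89, against 1.57 in DMSO. Pdp2, a phosphatase that activates pyruvate dehydrogenase, rose with propiconazole, triadimefon and myclobutanil by 0.20, 0.32 and 0.26.

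The cells carried hepatocyte markers, though 1 of the 14 on the array, Cyp3a2 at -0.14, lay below the array's median in DMSO. Of the 14 tested, 3 fell with propiconazole at 100 uM (Hp, Cyp2c11 and Ahsg, by 0.24, 0.54 and 0.33), where 5.60% of all genes fell. In the fit with the block 2 rose (Apoa1 and Cyp3a2) and 5 fell, where 29.3% of all genes were called. With triadimefon at 100 uM 2 fell (Hp and Ahsg, by 0.17 and 0.24), where 0.963% of all genes fell. The summed level of that list was 38.9 to 41.2 in DMSO and 37.7 to 40.1 with propiconazole at 100 uM. Of 7 macrophage markers tested Cd68 rose by 0.80 with propiconazole at 100 uM (limma adjusted p = 0.00727), where 6.37% of all genes rose. The summed level of the list was 0.97 to 3.20 in DMSO and 1.99 to 3.44 with propiconazole, and 5 of the 11 on the array lay at or below the array's median in DMSO. Cd163 and Adgre1 were at -0.34 and -0.50 there and Clec4f at 0.00, while Cd14 and Lyz2 were at 1.31 and 1.17. With the block Cd14 was called as well (0.39). Among 9 stellate cell or fibroblast markers 0 were called without the block, and with it Reln and Dcn rose by 0.20 and 0.14 and Vim and Tagln fell by 0.27 and 0.62, where 29.3% of all genes were called. Among 3 cholangiocyte markers 0 were called in either fit, and 7 of 8 endothelial markers lay at or below the median. In DMSO Vim of the stellate cell or fibroblast list was at 2.56 and Epcam of the cholangiocyte list at 2.02. There 5 of 12 and 4 of 5 markers of these 2 lists on the array lay at or below the median. The part of these shifts in the member changes was not tested. The Rs293 array of propiconazole at 30 uM stood apart, with an SD of deposited values of 0.941 against 0.646 to 0.754 elsewhere. Without it, an alternative chosen after seeing the data, propiconazole at 30 uM kept 0 members called, propiconazole at 100 uM had 8 (Pfkfb1 was lost, limma adjusted p = 0.0504) and its slope 6, and the myclobutanil 100 uM call of Tkt was lost (limma adjusted p = 0.053).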

How the data were processed

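Total RNA of 35 samples was hybridised to whole-genome Affymetrix rat arrays, per the labels' protocols. The deposited table holds 1 log-like score per probe set and array, for 31099 probe sets. How the authors normalized these scores, and the base of the scale, were not given in the sources used here. The number of arrays limits the precision. Deposited array medians ran from -0.03 to 0.02.

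Scores were quantile normalized over all arrays. The annotation named 1 gene for 20826 probe sets, several for 436 and none for 9780, and 57 control probe sets stayed out of the tests. A gene was represented by its probe set with the highest mean and tested when above the array median on at least 2 arrays. limma 3.58.1 in R 4.3.3 fitted 1 mean per group over 35 arrays for 11 comparisons with DMSO, 9 pairs of triazoles at equal dose and 3 dose slopes, with Benjamini-Hochberg adjustment, and was tested on simulated data.

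Every listed member is named; those called with or without the block are given by array, and other pathway genes are named when called at 100 uM without it. Members and lists were chosen with earlier results of these data known. Same-code arrays of compared groups deviated together (correlations from 0.277 to 0.952 over 86 pairs), so the code in the titles was taken to pair them. Alternatives were the values as deposited, median centring, median and MAD scaling, the block, no filter, other uses of the probe sets, fits of the compared groups alone and leaving out arrays. The block aside, they were read only for the members, the probe sets naming several genes and the counts over all genes. Added after seeing the data were a fit without the Rs293 array of propiconazole at 30 uM and the values as deposited with the block.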

Additional observations from a re-analysis of the deposited data

Results flagged for a closer look

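In 3 cases the direct test between triazoles at 100 uM passed the threshold, and each call was lost under most alternatives. Fbp1 was lower with propiconazole than with myclobutanil, with a difference of -0.48 (limma adjusted p = 0.0256), with all 3 propiconazole arrays below the 3 of myclobutanil. The probe set of Pkm and Pkm-ps20 was higher with propiconazole than with myclobutanil, by 0.70 (limma adjusted p = 0.0315), and than with triadimefon, by 0.71 (limma adjusted p = 0.0381), again with no overlap. The Fbp1 call was kept under 7 of 18 alternatives and lost under 11. The Pkm calls were kept under 7 of 17 against myclobutanil and 6 of 17 against triadimefon. All 3 were lost on the values as deposited. The Fbp1 call was also lost without the Rs256 or the Rs293 array of myclobutanil or the Rs304 array of propiconazole. Both Pkm calls were lost without the Rs256 or the Rs293 array of propiconazole, and without the Rs293 or the Rs304 array of the other triazole.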

How the results depend on the processing

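Counts of called members moved with the scaling, and no called direction reversed. On the values as deposited, with median centring and with median and MAD scaling, 0 members were called at 100 uM for myclobutanil, propiconazole, triadimefon and propiconazole minus myclobutanil, and the propiconazole slope had 1, 2 and 0. The values as deposited with the block gave 0, 5, 0 and 0 in those 4 comparisons. With the replicate block alone, which pairs arrays by code, there were 10 for myclobutanil, 14 for propiconazole and 6 for triadimefon at 100 uM, 2 for propiconazole at 30 uM, 5 and 1 for propiconazole minus myclobutanil and minus triadimefon at 100 uM, and slopes of 3 members for myclobutanil and 11 for propiconazole. In the same order the block called 9.92%, 29.3%, 11.8%, 2.62%, 7.09%, 4.59%, 6.63% and 24.8% of all genes. With only the groups compared there were 0, 2, 0 and 0, and 2 for the propiconazole slope. Myclobutanil at 100 uM had 0 with no filter, with each probe set as a feature and without the Rs293 array of propiconazole at 30 uM, and triadimefon at 100 uM had 0 with no filter. Leaving out arrays gave 0 to 3 members for myclobutanil, 2 to 11 for propiconazole and 0 to 2 for triadimefon at 100 uM, 0 to 1 for propiconazole at 30 uM, 0 to 1 for propiconazole minus myclobutanil, and 0 to 3 and 1 to 8 for the myclobutanil and propiconazole slopes. The shares of all genes called with arrays left out are not given here, so these counts describe the members alone. Over all genes, propiconazole at 100 uM had 1255 calls, 428 on the values as deposited and 3075 with the block. The cause of these shifts was not tested. Signals near the array median limit Pck1, Pfkm and Hk1. The same holds in DMSO for Eno2, for Pfkfb3 (0.20) and for the probe set of Pkm and Pkm-ps20. Of the markers it holds there for Cd68 (0.17) and Reln (0.06), and Dcn (-0.21) lay below the median. With propiconazole and triadimefon at 100 uM it holds for the second falling probe set of Psme3, Aoc3 and G6pc1.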
